A study of Mus musculus with 28 samples.

Results

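Semaglutide added to high-intensity interval training (HIIT) was examined in the kidney of db/db mice by setting the 4 kidney libraries of mice given both treatments (combined) against the 4 kidney libraries of mice given HIIT alone. These are 8 of the 28 samples of the series, taken by the group named in their labels, and no measured value defined the groups. The gene lists described below were chosen with earlier results of these data known. All mice were male C57BL/KsJ db/db animals, whose mutant leptin receptor leads to obesity and diabetes, and every group, the controls included, shares that genotype. The mice were 8 weeks old at the start, and treatment ran for 8 weeks, with sedentary controls, HIIT, semaglutide and the combination as the 4 groups of 4 kidney libraries each. HIIT was treadmill running in 10 bouts of 4 min at 85 to 90% of top speed, with 2 min of slower running at 50 to 60% between them, on 5 days a week, while the sample titles give 60 min of exercise. Semaglutide, which activates the GLP-1 receptor, was injected under the skin once a day. The sample titles state 0.05 mg/kg while the treatment protocol states 30 nmol/kg, which are different amounts. The comparison asked what the drug added in mice that also trained. Nothing in the labels says that each library came from its own animal, and the p-values reflect only how far these samples differ from each other, which may be technical.

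The kidney combines filtration with segment-specific reabsorption along the nephron, and its proximal tubule burns fatty acids and is one of the few sites outside the liver that can make ketone bodies. Many renal transporters and metabolic enzymes follow the molecular clock, in which CLOCK or NPAS2 pairs with BMAL1 on E-box sequences to drive the Per and Cry repressors, while nuclear receptors such as REV-ERB set the level of BMAL1 itself. GLP-1 receptor agonists lower food intake and blood glucose, and in the kidney the receptor has been placed mainly in vascular smooth muscle.

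Values are FPKM (fragments relative to the length of the transcript and to all mapped fragments of the library) after median-ratio scaling of the libraries, called scaled FPKM, and changes are differences of log2(scaled FPKM + 1) ± SE, which understate the change of weakly expressed genes. FPKM hold no read counts, so depth is unknown and precision rests on the spread between libraries. Summed FPKM ran from 495273 to 662489 over the 16 kidney libraries. Control 1 was unlike the rest (median correlation with the other libraries 0.911, against 0.96 to 0.98). It enters the comparison of combined with HIIT through the shared estimate of spread and through the gene filter and scaling, set over all 16 libraries. Fits without control 1 kept that filter and scaling. Among the 8 libraries compared, HIIT 1 and HIIT 2 had the highest share of mitochondrially encoded mRNA, 60.5 and 58.6%. HIIT 4 had the highest level of the injury gene Lcn2, 42.6 scaled FPKM against 0.993 to 8.41 in the other 7. The labelled tissue matched its markers: the 18 early proximal tubule markers were all measured and summed to 10300 to 22500 scaled FPKM with HIIT and 12000 to 18100 with the combination. Of the defining genes of other cells, the neutrophil gene Ly6g and the adrenal gene Cyp11b2 were at 0 in all 8 libraries, and the T cell gene Cd3e ran from 0 to 0.374 and the skeletal muscle gene Acta1 from 0 to 0.161 scaled FPKM. Not at 0 were the hepatocyte gene Alb (5.42 to 8.88), the leukocyte gene Ptprc (0.455 to 1.99, highest in HIIT 4) and the adipocyte gene Adipoq (3.14 in combined 1, 1.28 in combined 3 and 0 to 0.46 in the other 6). The whole marker lists of adrenal cortex and skeletal muscle did not sum to near 0 either. Adrenal cortex summed to 60.5 to 96.3 scaled FPKM with HIIT and 75.3 to 93.2 with the combination. Skeletal muscle summed to 77.9, 81.2, 81.5 and 29.6 in HIIT 1 to 4 and to at most 48.1 in the combined libraries.

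The mRNA of Coq10b was at a higher level in the combined group than with HIIT alone. Coq10b encodes a mitochondrial protein that binds coenzyme Q, the lipid electron carrier of the respiratory chain. Its level was 14.4, 15.2, 15 and 14 scaled FPKM in HIIT 1 to 4 and 24.5, 22.6, 27.5 and 25 in combined 1 to 4. Every combined library lay above every HIIT library, and the spread within HIIT was small (14.6 ± 0.511, SD, n = 4, against 24.9 ± 2.00). The log2 change was 0.72 ± 0.11 (limma adjusted p = 0.0384). It was among 2 genes of 11551 tested that passed (0.0173%), both higher; 0 passed as lower. At an unadjusted p under 0.05 limma counted 676 genes, 387 higher (3.35%) and 289 lower (2.5%), and the median change of all genes tested was -0.0013.

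Cry1, a clock repressor, missed the threshold. Its level was 0.819, 1.12, 0.914 and 0.419 scaled FPKM with HIIT and 1.85, 2.81, 2.75 and 1.79 with the combination. The groups did not overlap, and the log2 change was 0.86 ± 0.17 (limma adjusted p = 0.333).

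**Figure D1:**
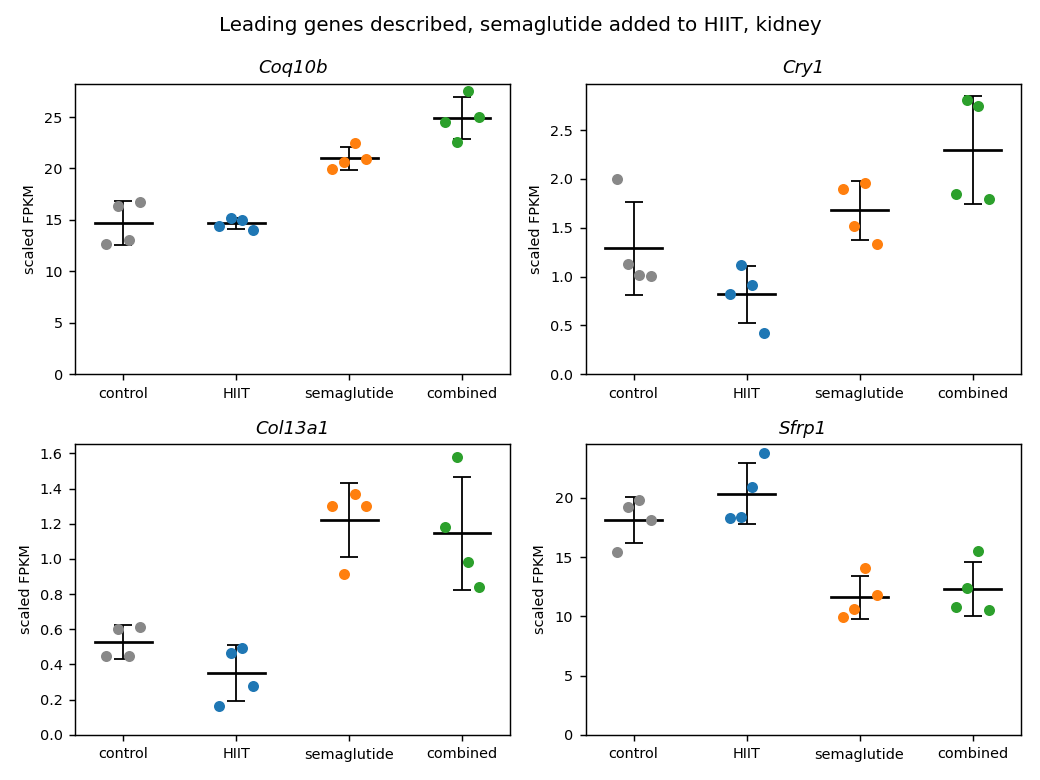
Scaled FPKM of Coq10b, Cry1, Col13a1 and Sfrp1 (vertical axes, from 0) in each kidney library of the 4 groups; points are libraries, the thick line is the group mean and the error bar its SD (n = 4). Each combined library lies above each HIIT library for Coq10b, Cry1 and Col13a1 and below each for Sfrp1.

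The call of Coq10b was sensitive to which libraries entered the fit, while its size was not: over 17 other settings the change stayed between 0.68 and 0.92. It did not pass without HIIT 1, HIIT 2, HIIT 3 or any single combined library (limma adjusted p 0.0858 to 0.192), without HIIT 1 and 2 together (0.708), with replicate number as a block (0.23), in the fit of only the 2 groups (0.154) or on the values as deposited (0.286). Exons of Coq10b overlap an annotated gene on the opposite strand, and the sources used here do not say whether counting used strand. Such an overlap is found for 24 of the genes named here, Usp2, Dbp, Arntl, Cry2, Cyp24a1, Slc8a1, Slc5a10 and Acmsd among them, and exons of Eif4ebp3, Ppm1h, Drosha and Glul overlap a gene on their own strand, so reads of these genes are uncertain.

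The promoters of Coq10b and of the clock genes Cry1, Ciart and Per1 are shown because these genes had higher levels in the combined group and their windows hold the E-box through which the clock acts. Each is the 300-base RefSeq window from 250 bases before to 50 after the annotated start (build GRCm38.p6, whereas the deposited values were made on GRCm39), given 5′ to 3′ on the gene's strand. Capitals mark the E-box CACGTG and, in Coq10b, the D-box TTATGTAA, which is bound by DBP and its relatives and stands there on the opposite strand as TTACATAA. The windows lie at chr1:55052520-55052819 (+) for Coq10b, chr10:85185005-85185304 (-) for Cry1, chr3:95882179-95882478 (-) for Ciart and chr11:69098699-69098998 (+) for Per1.
Coq10b: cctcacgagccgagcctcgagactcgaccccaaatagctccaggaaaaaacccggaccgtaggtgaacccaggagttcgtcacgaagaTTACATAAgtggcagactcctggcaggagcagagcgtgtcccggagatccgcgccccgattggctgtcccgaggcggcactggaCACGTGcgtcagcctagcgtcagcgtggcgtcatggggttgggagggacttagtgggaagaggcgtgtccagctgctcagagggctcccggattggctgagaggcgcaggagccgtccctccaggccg
Cry1: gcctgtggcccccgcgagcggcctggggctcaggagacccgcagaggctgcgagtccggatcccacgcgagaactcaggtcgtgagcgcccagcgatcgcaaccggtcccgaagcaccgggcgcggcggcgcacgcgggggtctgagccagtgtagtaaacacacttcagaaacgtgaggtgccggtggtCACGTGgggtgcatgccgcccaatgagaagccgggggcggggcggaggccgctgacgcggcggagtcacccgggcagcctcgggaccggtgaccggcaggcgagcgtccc
Ciart: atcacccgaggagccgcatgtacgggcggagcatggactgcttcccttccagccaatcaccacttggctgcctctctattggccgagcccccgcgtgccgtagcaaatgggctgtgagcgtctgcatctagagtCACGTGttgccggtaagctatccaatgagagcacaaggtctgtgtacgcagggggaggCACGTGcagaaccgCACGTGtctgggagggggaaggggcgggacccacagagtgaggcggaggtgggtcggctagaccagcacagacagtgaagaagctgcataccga
Per1: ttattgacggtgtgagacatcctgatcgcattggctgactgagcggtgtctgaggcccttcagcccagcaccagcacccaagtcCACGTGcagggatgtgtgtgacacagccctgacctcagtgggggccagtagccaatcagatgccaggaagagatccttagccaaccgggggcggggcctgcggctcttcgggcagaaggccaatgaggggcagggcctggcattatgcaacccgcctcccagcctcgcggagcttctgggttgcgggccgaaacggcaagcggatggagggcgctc
The E-box begins 78 bases before the start in Coq10b, 60 in Cry1 and 166 in Per1, and Ciart holds 3, which begin 116, 58 and 44 bases before it; the D-box of Coq10b begins 162 bases before the start. Searched on both strands, the E-box was in 7.24% of the 27025 promoter windows of the table and in 10.4% of the 9160 that belong to tested genes. The D-box was in 0.955 and 0.48% of them. Of the clock genes described next, 18 of 22 had a window and 5 of those (27.8%) held an E-box. Such a match describes the letters and is not evidence of binding. The windows of Npas2, Arntl, Dbp and Usp2 held neither motif.

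Clock genes had the most members with different levels in the 2 groups of any list examined. Of 22 measured, 8 were higher and 2 lower at an unadjusted p under 0.05, against 3.35 and 2.5% of all genes tested. Among the same 22, 8 lay wholly above and 2 wholly below the HIIT libraries, against 2.31 and 1.85% of all genes tested. The mean was higher for 16 of the 22, against 49.6% of all genes, and the median change was 0.34. Ciart, a repressor also called CHRONO, was at 1.16, 1.79, 0.951 and 0.608 scaled FPKM with HIIT and 3.54, 3.07, 2.94 and 5.87 with the combination. No value overlapped, and the log2 change was 1.18 ± 0.38 (limma adjusted p = 0.749). Dbp, an output transcription factor with a large daily swing, ran from 13.9 to 42.0 with HIIT and from 45.8 to 55.0 with the combination (1.07 ± 0.45). Usp2, a clock-regulated deubiquitinase, ran from 5.52 to 15.5 and from 17.8 to 22.1 (0.73 ± 0.25).

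The period genes were higher on average with some overlap. Per1 was at 2.57 to 5.21 scaled FPKM with HIIT and 3.48 to 9.99 with the combination (log2 change 0.70 ± 0.26), Per2 at 1.21 to 3.06 and 2.71 to 5.22 (0.64 ± 0.21), and Per3, whose groups did not overlap, at 1.14 to 2.19 and 2.25 to 5.07 (0.62 ± 0.21). Cry2 (0.30 ± 0.16) and the Dbp relative Hlf (0.35 ± 0.20) also had groups without overlap. Lower means were found for 6 of the 22, among them the repressors Nr1d1 (-0.18 ± 0.22, but 0.02 on the values as deposited) and Nfil3 (-0.16 ± 0.31, but 0.08 without HIIT 3). Npas2, a partner of BMAL1, was at 1.37, 1.03, 1.57 and 1.23 scaled FPKM with HIIT and 0.596, 0.441, 0.160 and 0.356 with the combination. All combined values were below all HIIT values, and the log2 change was -0.73 ± 0.17 (limma adjusted p = 0.661). Npas2 was at most 0.784 with semaglutide alone, so it passed the gene filter only through control and HIIT libraries. Arntl, which encodes BMAL1, ran from 1.62 to 3.36 and from 0.750 to 1.96 (-0.58 ± 0.26), and Clock from 3.55 to 3.99 and from 2.79 to 3.46 (-0.20 ± 0.12). limma adjusted p of the clock genes named here ran from 0.333 to 0.965. The sources used here do not give the hour of tissue collection, and its part in these values was not tested.

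**Figure D2:**
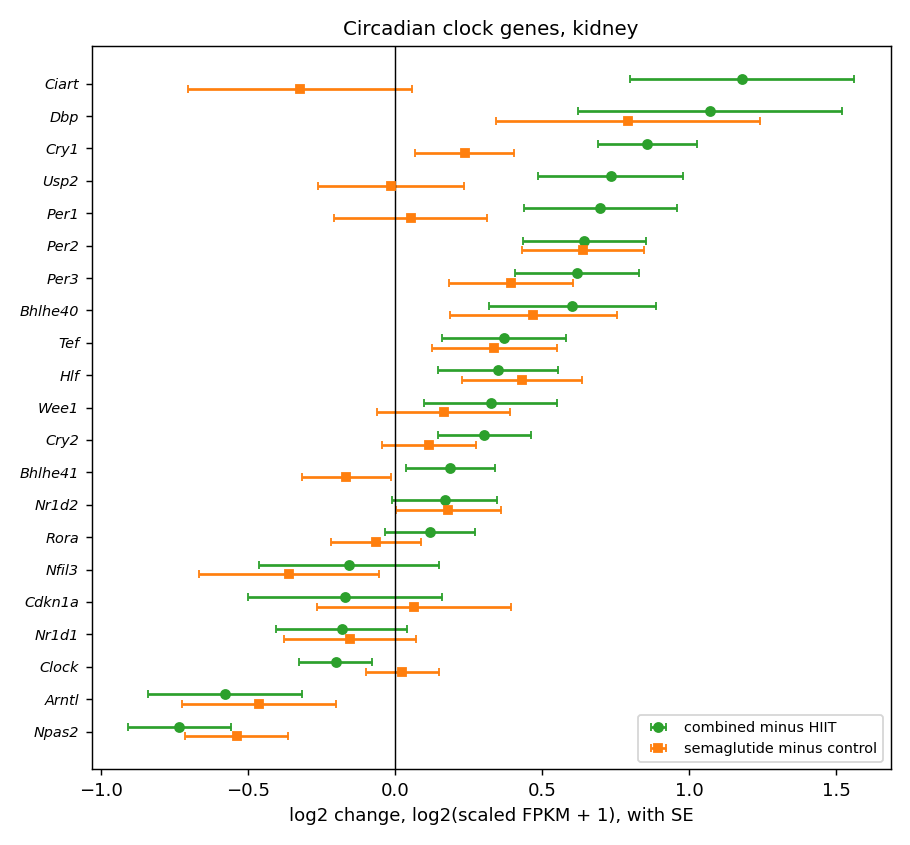
Log2 changes with SE of 21 clock genes (horizontal axis) for semaglutide added to training (circles, combined minus HIIT) and for semaglutide in sedentary mice (squares, semaglutide minus control), 4 libraries a group, sorted by the first. Circles of 15 genes lie above 0. Ciart, Usp2 and Per1 have circles above 0.6 and squares at -0.32, -0.01 and 0.05. Per2, Dbp, Npas2 and Arntl have squares on the side of their circles, at 0.64, 0.79, -0.54 and -0.46.

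Genes of fatty acid oxidation and ketogenesis were mostly at higher levels in the combined group. The mean was higher for 32 of 37 measured members (49.6% of all genes), with a median change of 0.25. Of the members, 6 had an unadjusted p under 0.05, all higher (3.35% of all genes), and 0 passed over all genes. The omega-hydroxylase gene Cyp4a10, a textbook target of PPAR alpha, was at 339, 298, 320 and 310 scaled FPKM in the HIIT libraries and 531, 554, 591 and 416 in the combined ones. There was no overlap, and the log2 change was 0.71 ± 0.26 (limma adjusted p = 0.805). Eci2, an enoyl-CoA isomerase of unsaturated fatty acid breakdown, ran from 47.9 to 59.0 and from 60.1 to 74.9 (0.42 ± 0.13). Cyp4a14, a close relative of Cyp4a10, was at 475 to 509 in combined 1 to 3 but at 210 in combined 4, within the HIIT range of 162 to 318 (0.85 ± 0.32). The acylcarnitine carrier Slc25a20 (0.36 ± 0.16) and the carnitine palmitoyltransferase Cpt1a, which gates fatty acid entry into mitochondria (0.36 ± 0.16), had overlapping groups. The number of members with an unadjusted p under 0.05 was 3 without combined 2 or without combined 3 and 2 without HIIT 1 and 2 together. It was 10 without HIIT 4 and 18 with library weights, but all genes at that level also rose in number. Of the 11551 genes tested, in either direction, 1944 were at that level without HIIT 4 and 2763 with library weights. It was 676 in the unweighted fit of all 16 libraries.

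The enzymes that break down and make active vitamin D had levels on opposite sides, none past the threshold. Cyp24a1, which inactivates calcitriol, was at 38.8, 55.8, 36.4 and 19.3 scaled FPKM with HIIT and 12.2, 4.71, 10.2 and 4.65 with the combination. The highest combined value was below the lowest HIIT value, and the log2 change was -2.12 ± 0.67 (limma adjusted p = 0.725). Vdr, the calcitriol receptor, was lower without overlap, 23.6 to 31.9 against 14.6 to 18.9 (-0.66 ± 0.23). Cyp27b1, which makes calcitriol, was at 25.4, 18.5, 17.9 and 8.38 with HIIT and 14.5, 34.7, 37.2 and 32.6 with the combination; 3 of 4 combined libraries were above all HIIT libraries and combined 1 was not (0.74 ± 0.37, limma adjusted p = 0.838). These genes belong to a list of proximal sodium, phosphate and vitamin D handling whose 17 members had a median of -0.01. Of the members, 1 was higher and 3 were lower at an unadjusted p under 0.05 (3.35 and 2.5% of all genes).

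Calcium, magnesium and sodium transporters of the distal nephron had lower means, and 0 passed over all genes. Of 12 markers of the distal convoluted and connecting tubule, 11 had a lower mean in the combined group, the median change was -0.52, and 4 were lower and 0 higher at an unadjusted p under 0.05 (2.5% of all genes lower). Slc8a1, the basolateral sodium-calcium exchanger, was at 6.19, 5.25, 7.60 and 8.88 scaled FPKM with HIIT and 2.66, 3.93, 2.93 and 4.01 with the combination. The groups did not overlap, and the log2 change was -0.86 ± 0.24 (limma adjusted p = 0.685). The apical calcium channel gene Trpv5 was lower without overlap (2.88 to 13.8 against 1.34 to 2.46, -0.90 ± 0.38), with the value of 13.8 in HIIT 4 alone. Slc12a3, the thiazide-sensitive sodium chloride cotransporter, was at 68.3 to 106 and 40.3 to 55.6 (-0.67 ± 0.29), and the magnesium channel gene Trpm6 overlapped (2.03 to 3.02 and 0.740 to 2.19, -0.58 ± 0.18). A list of distal calcium, magnesium and sodium transport, which shares 9 members with these markers, had a lower mean for 18 of 22. The 4 lower markers at an unadjusted p under 0.05 were 2 without combined 1 and 7 without HIIT 1 and 2 together. All genes at that level, in either direction, numbered 442 and 463 in these fits, against 676 with all 16 libraries. In bulk kidney, fewer cells of a segment and less RNA per cell cannot be told apart.

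**Figure D3:**
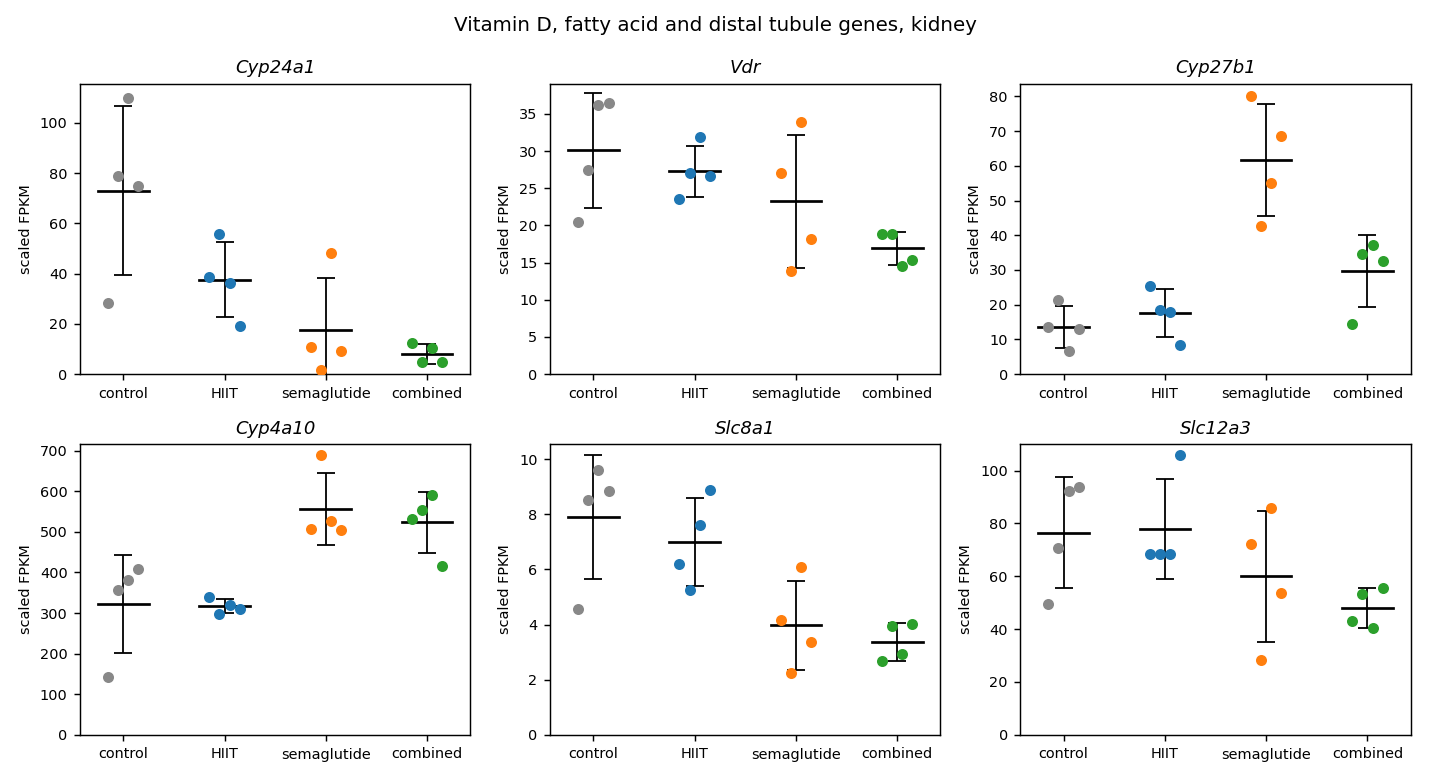
Scaled FPKM of Cyp24a1, Vdr, Cyp27b1, Cyp4a10, Slc8a1 and Slc12a3 (vertical axes, from 0) in each kidney library of the 4 groups; points are libraries, the thick line is the group mean and the error bar its SD (n = 4). Combined libraries lie below HIIT libraries for Cyp24a1, Vdr, Slc8a1 and Slc12a3 and above them for Cyp4a10.

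Genes of urine concentration and of the loop of Henle had higher levels with the combination. For urine concentration the mean was higher for 16 of 17 members and the median change was 0.67. Of these, 6 were higher and 0 lower at an unadjusted p under 0.05 (3.35 and 2.5% of all genes). Of 14 loop markers, 3 of them shared, 13 had a higher mean (49.6% of all genes). Their median was 0.63, with 3 higher at that level. Slc14a2, the urea transporter of the inner medulla and descending limb, was at 14.9, 3.92, 0.286 and 0 scaled FPKM with HIIT and 50.5, 28.1, 34.5 and 18.6 with the combination. The HIIT libraries spread widely but all lay below the combined ones, and the log2 change was 3.33 ± 1.10 (limma adjusted p = 0.749). The water channel gene Aqp4 was at 6.11, 6.52, 5.45 and 7.20 with HIIT and 20.6, 12.3, 22.4 and 13.4 with the combination, without overlap (1.27 ± 0.53). Aqp3, the other basolateral water channel of principal cells, overlapped in combined 4 (20.5 to 42.0 and 37.9 to 58.5, 0.67 ± 0.27), as did the vasopressin-regulated channel gene Aqp2 (103 to 250 and 205 to 531, 0.88 ± 0.49).

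Further genes of this list handle organic osmolytes. The betaine carrier gene Slc6a12 was at 0.254 to 4.60 scaled FPKM with HIIT and 4.27 to 10.6 with the combination (log2 change 1.64 ± 0.59), and the taurine carrier gene Slc6a6 at 32.3 to 62.8 and 46.6 to 65.8 (0.47 ± 0.19), both with overlap. Akr1b3, the aldose reductase that makes sorbitol, was at 18.6 to 28.5 with HIIT and at 643, 77.2, 50.5 and 31.1 in combined 1 to 4, so that combined 1 was far above the rest (1.97 ± 0.92). In the loop list, Fst, the activin-binding protein follistatin, was at 0.563 to 2.49 and 4.07 to 8.72 (1.52 ± 0.53) without overlap. Principal cell markers had a higher mean for 9 of 12 (median 0.37). The limma adjusted p of these genes ran from 0.749 to 0.864.

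Markers of the urothelium and papilla had higher levels beside them. Their mean was higher for 9 of 10 tested markers, the median change was 0.98, and their summed level was 36.3, 33.2, 28.3 and 38.8 scaled FPKM in HIIT 1 to 4 and 150, 62.5, 62.2 and 26.9 in combined 1 to 4. At an unadjusted p under 0.05, 1 of the 10 was higher (3.35% of all genes). The median change was 0.49 without combined 1, where 0 were at that level. It was 1.47 without combined 4, where 6 were. In that last fit 945 of the 11551 genes tested were at that level in either direction, against 676 with all 16 libraries. Combined 1 was highest and combined 4 below all HIIT libraries. In combined 4, Slc14a2, Aqp4, Slc6a12 and Akr1b3 were above every HIIT library, while Aqp2, Aqp3 and Slc6a6 lay within the HIIT range. The summed level of urine concentration genes was 1050, 859, 961 and 1450 scaled FPKM in HIIT 1 to 4. It was 2850, 1650, 2160 and 1350 in combined 1 to 4. Of the defining uroplakin genes, Upk2 ran from 0 to 0.812 scaled FPKM with HIIT and from 0 to 6.09 with the combination. The part of the dissected region in the medullary values was not tested. The count of urine concentration genes higher at an unadjusted p under 0.05 was 3 without HIIT 2, HIIT 3 or combined 3. It was also 3 without HIIT 1 and 2 together, and it was 11 in the fit of only the 2 groups. In that 2-group fit 831 of all genes tested were at that level, in either direction.

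**Figure D4:**
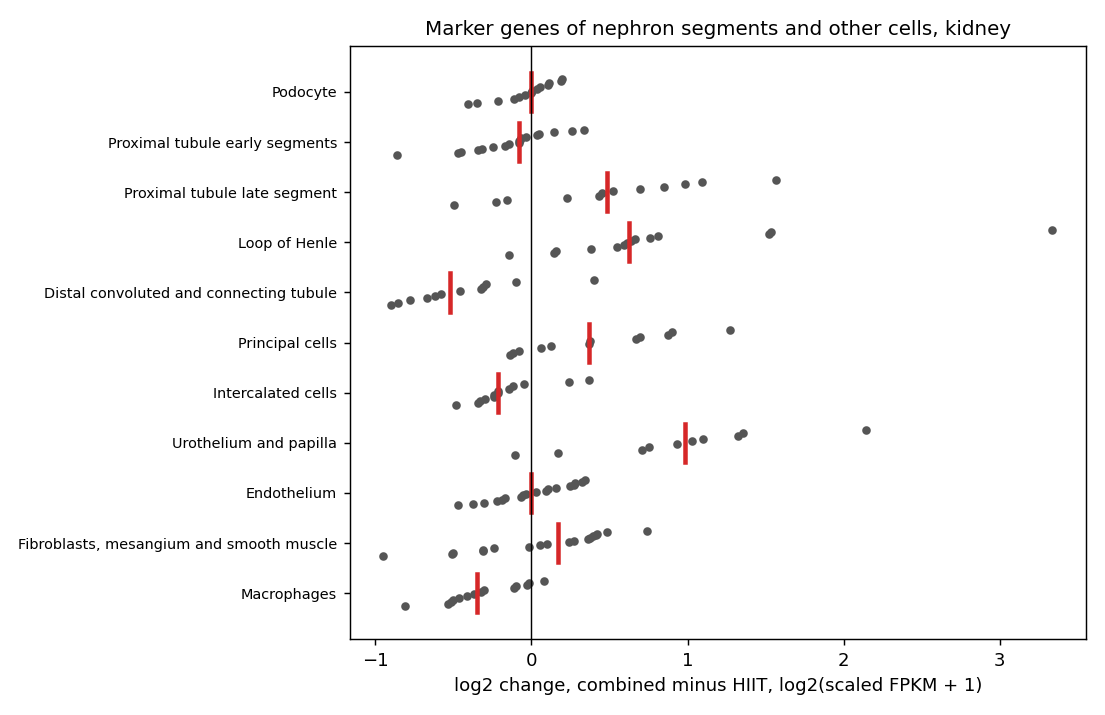
Log2 change, combined minus HIIT (horizontal axis), of each tested marker of nephron segments and other kidney cells; each point is a gene and the red bar is the list median. Medians lie at 0.63 for the loop of Henle, 0.49 for the late proximal tubule and 0.98 for urothelium and papilla, at -0.52 for the distal convoluted and connecting tubule, and within 0.1 of 0 for podocyte, early proximal tubule and endothelium.

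Markers of the late proximal tubule were also on the higher side, 9 of 12 (49.6% of all genes) with a median of 0.49. The 18 early proximal markers had a median of -0.08. Of the late markers, 5 were higher at an unadjusted p under 0.05 (3.35% of all genes). Slc22a7, an organic anion transporter of that segment, was at 0.839, 1.04, 2.14 and 1.10 scaled FPKM with HIIT and 4.58, 3.62, 14.4 and 3.78 with the combination. The groups were separate, combined 3 stood out, and the log2 change was 1.57 ± 0.37 (limma adjusted p = 0.661). Slc5a10, a sodium-coupled carrier of fructose and mannose, was at 150 to 247 with HIIT and 256 to 342 with the combination (0.69 ± 0.20). Cyp7b1, an oxysterol hydroxylase, was at 3.27 to 6.39 and 7.14 to 17.1 (1.09 ± 0.45), and Bcat1, the cytosolic branched-chain aminotransferase, at 0.103 to 0.371 and 0.420 to 4.32 (0.99 ± 0.43). Each had groups without overlap. Bcat1 met the gene filter only with the combined libraries counted. The 5 higher markers at an unadjusted p under 0.05 were 3 without HIIT 2 or combined 1, or without HIIT 1 and 2 together, and 2 without combined 3.

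Other genes with the smallest p among those whose groups did not overlap had varied roles. On the higher side Col13a1, a transmembrane collagen, was at 0.164, 0.467, 0.496 and 0.278 scaled FPKM in the HIIT libraries. In the combined ones it was at 1.18, 1.58, 0.983 and 0.838, a log2 difference of 0.66 ± 0.13 (limma adjusted p = 0.352). Its level was at most 0.615 in controls. It therefore passed the gene filter only through libraries of mice given semaglutide, and its p-value carries that selection. Eif4ebp3, a repressor of translation initiation, differed by 1.39 ± 0.31, the brain-type aldolase Aldoc by 1.5 ± 0.38 and the adenosine receptor gene Adora1 by 1.00 ± 0.25. Tmem200b (0.74 ± 0.17), the liprin gene Ppfibp2 (0.72 ± 0.17) and Ccdc174 (0.72 ± 0.18) completed the set. On the lower side the Wnt antagonist gene Sfrp1 was at 18.3, 18.4, 20.9 and 23.8 scaled FPKM with HIIT and 10.8, 12.4, 15.5 and 10.5 with the combination. These values were separate, and the log2 change was -0.69 ± 0.14 (limma adjusted p = 0.352). Itgb6, an integrin subunit of epithelia that activates latent TGF beta, was at 17.4, 18.1, 23.4 and 35.0 and at 9, 9.29, 6.18 and 13.6 (-1.21 ± 0.32), and the cytokine gene Il18 at 2.17 to 5.04 and 1.27 to 1.64 (-0.77 ± 0.20). Lower means without overlap were also seen for Fabp7, a fatty acid-binding protein (-0.89 ± 0.22), Cyp4a12b (-0.74 ± 0.19, a near-identical copy of Cyp4a12a with which reads may be shared), the phosphatase gene Ppm1h (-0.54 ± 0.13), Fjx1 (-0.52 ± 0.14), Csgalnact1, an enzyme of chondroitin sulfate synthesis (-0.48 ± 0.12), Ccdc43 (-0.47 ± 0.11), the kinase gene Hunk (-0.40 ± 0.11) and Drosha, which processes primary microRNAs (-0.31 ± 0.08). limma adjusted p of the genes in this paragraph ran from 0.352 to 0.685.

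In the steroid- and stress-responsive lists 0 members passed over all genes. Of all genes tested, 49.6% had a higher mean. At an unadjusted p under 0.05, 3.35% of all genes were higher and 2.5% lower. Of 15 genes of aldosterone and sodium channel regulation 11 had a higher mean (median 0.17) and 3 were higher at an unadjusted p under 0.05; without HIIT 1 it was 9 of 15 and 1, and without HIIT 1 and 2 together 7 of 15 and 1. The list includes Tsc22d3, the glucocorticoid-induced leucine zipper, at 17.3, 17.6, 19.9 and 12.9 scaled FPKM with HIIT and 43.7, 27.3, 21.0 and 29.4 with the combination (log2 change 0.78 ± 0.23, limma adjusted p = 0.692). Fkbp5, a glucocorticoid-induced co-chaperone, overlapped (16.7 to 27.6 and 25 to 34.7, 0.44 ± 0.18). The 3 higher genes of the aldosterone list were Tsc22d3, Fkbp5 and Per1, which is also counted among the clock genes. Heat shock chaperones had a median of 0.10, with 4 of 21 higher at an unadjusted p under 0.05 (2 without HIIT 1 and 2 together, and a median of -0.04 there and without HIIT 1), and Hspa1a (1.08 ± 0.37) and Hspa1b (1.73 ± 0.56), near-identical copies with which reads may be shared, were highest in combined 1 at 24.2 and 53.8. Dnajb9 (0.65 ± 0.19) and Herpud1 (0.56 ± 0.17), both of the endoplasmic reticulum stress response, had higher means in a list with a median of 0.03, where 3 of 26 were higher and 1 lower at an unadjusted p under 0.05. In the hypoxia list (median 0.15) 5 of 20 were higher and 1 lower at an unadjusted p under 0.05, against 2 higher without HIIT 1 or combined 2 and 3 without HIIT 2, HIIT 3, combined 1 or combined 3. Mxi1, an antagonist of MYC, was at 9.95 to 20.9 and 21.9 to 30.7 (0.67 ± 0.19) and the mitophagy receptor gene Bnip3 at 59.0 to 89.5 and 97.8 to 114 (0.53 ± 0.17), neither with overlap.

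Among metabolic transporters and enzymes, Slc16a1, the lactate and ketone body carrier MCT1, was at 12.5, 10.4, 23.6 and 15 scaled FPKM with HIIT and 8.51, 7.37, 7.37 and 6.54 with the combination. It was lower without overlap (log2 change -0.90 ± 0.26, limma adjusted p = 0.685), in a list of glucose and monocarboxylate carriers with a median of 0.02. Acmsd, an enzyme of tryptophan breakdown, was lower at 34.4 to 70 against 14.7 to 33.3 (-1.22 ± 0.35), and glutamine synthetase, Glul, was higher at 154 to 188 against 197 to 312 (0.58 ± 0.17). Pck1, the gluconeogenic enzyme PEPCK, overlapped at its lower combined values (410 to 1010 and 1000 to 2100, 0.82 ± 0.37). Of the vasoactive receptors, Ednrb, for endothelin, was higher without overlap (3.21 to 6.28 and 6.91 to 9.09, 0.65 ± 0.21), and Agtr1a, for angiotensin II, lower with overlap (19.2 to 27.0 and 14.9 to 19.2, -0.42 ± 0.14). The limma adjusted p of these genes ran from 0.685 to 0.838.

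Antigen presentation and macrophage genes had lower means. All 7 tested MHC class II genes did (median -0.75), with H2-Ab1 at 49.1, 40.0, 60.3 and 64.0 scaled FPKM with HIIT and 28.9, 20.0, 39.8 and 19.2 with the combination, and H2-Aa at 36.6 to 63.7 and 17.9 to 31.0. Neither overlapped, yet their SE were wide (-1.0 ± 0.74 and -0.99 ± 0.78), and the shared spread includes control 1, where both were highest (510 and 620). Of 14 tested macrophage markers 13 had a lower mean (median -0.35; without HIIT 4, 9 of 14 and -0.16), among them Tyrobp (4.58 to 6.89 and 1.79 to 3.79) and C1qa (7.84 to 15.8 and 5.52 to 7.02). None of these genes had an unadjusted p under 0.05 with all 16 libraries. In the fit of only the 2 groups 5 of the class II and 5 of the macrophage genes were lower at that level. Without control 1 it was 4 and 3. Of the 11551 genes tested, in either direction, 831 were at that level in the 2-group fit and 982 without control 1. With all 16 libraries it was 676. The summed macrophage level was 67.9, 66.1, 69.5 and 138 in HIIT 1 to 4 and 52.0, 64.3, 68.2 and 59.5 in combined 1 to 4, so HIIT 4 was highest and the other libraries of the groups overlapped. All 7 erythroid genes tested had a higher mean (median 0.43), with combined 4 lowest in its group.

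A few genes were described whatever their values. Glp1r, the drug's receptor, was scarce and not tested, at 0.319, 0.191, 0.322 and 0.282 scaled FPKM with HIIT and 0.450, 0.371, 0.347 and 0.349 with the combination. Lepr, also untested, was at 0.187 to 0.549 and 0.589 to 1.12. The insulin receptor gene Insr had a log2 change of -0.01 ± 0.24, the glucose carrier gene Slc5a2 (SGLT2) -0.14 ± 0.36 and the sodium-hydrogen exchanger gene Slc9a3 -0.01 ± 0.18. The injury markers Havcr1 (0.0271 to 0.127 in HIIT 1 to 3, 38.1 in HIIT 4 and 0.0803 to 0.669 in the combined libraries, not tested) and Lcn2 (0.44 ± 1.33) turned on HIIT 4. The share of mitochondrially encoded mRNA was 60.5, 58.6, 38.4 and 30.3% in HIIT 1 to 4 and 39.8, 34.2, 35.6 and 51.0% in combined 1 to 4, a difference of -6.82 percentage points (40.1 ± 7.6 against 47.0 ± 14.9%, SD, n = 4; exact two-sided permutation p = 0.4, where 70 arrangements allow no less than 0.0286). All 13 of those mRNAs had a lower mean (median log2 change -0.45), and 0 had an unadjusted p under 0.05. That direction rested on HIIT 1 and 2: without both, all 13 had a higher mean (median 0.39). The median was -0.12 without HIIT 1, -0.22 without HIIT 2, -0.69 without combined 4 and -0.87 without HIIT 4. Without HIIT 4, 4 were lower at an unadjusted p under 0.05, and with library weights 10 were. All genes at that level, in either direction, numbered 1944 and 2763 in these 2 fits. They numbered 676 in the unweighted fit of all 16 libraries.

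Over the 52 lists with at least 5 tested members, 38 of pathways and 14 of cell types, medians ran from -0.75 to 0.98 and 33 lay within 0.2 of 0.

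The same drug was compared in sedentary mice, semaglutide against control, with none of the 8 libraries in common but in the same fit. There limma called 0 genes (0%; 493 at an unadjusted p under 0.05, smallest adjusted p 0.0695). Coq10b differed by 0.50 ± 0.11 (14.7 ± 2.11 against 21.0 ± 1.11 scaled FPKM, SD, n = 4). Sfrp1 (-0.60 ± 0.14), Slc8a1 (-0.85 ± 0.24) and Npas2 (-0.54 ± 0.17) had lower means with semaglutide in sedentary mice as they did with training, and Cyp24a1 differed by -2.60 ± 0.67 (73.0 ± 33.7 against 17.4 ± 20.9). Cyp4a10 differed by 0.88 ± 0.26. Cyp27b1 differed by 2.16 ± 0.37 (13.6 ± 6.10 against 61.6 ± 16.2, limma adjusted p = 0.0695), and the difference from its change with training was -1.42 ± 0.52 (limma adjusted p = 1.0). Without control 1, an alternative chosen after seeing the data, limma again called 0 genes (527 at an unadjusted p under 0.05), and the change of Cyp4a10 was 0.53 ± 0.15. The other changes in this paragraph then moved by less than 1.5 times, Cyp27b1 to 2.19 ± 0.40.

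Of the 267 genes whose combined libraries all lay above the HIIT libraries, 24 also had semaglutide libraries all above the controls, 8.99% of those 267 and 13.8% of the 174 such genes (1.51% of all tested) in sedentary mice. In the lower direction it was 8, 3.74% of 214 and 5.63% of 142 (1.23% of all tested). The medians of urine concentration genes were 0.67 with training and 0.17 without, of late proximal tubule markers 0.49 and 0.26, of distal convoluted and connecting tubule markers -0.52 and -0.21, of fatty acid oxidation genes 0.25 and 0.29 and of clock genes 0.34 and 0.09. Without control 1 the sedentary medians were, in the same order, -0.02, 0.14, -0.36, 0.11 and 0.17. Of the 10 clock genes at an unadjusted p under 0.05 with training, 8 had a change of the same sign in sedentary mice. Of all genes tested without overlap between combined and HIIT, 214 of the 267 higher had a higher mean with semaglutide in sedentary mice. Of the 214 lower, 155 had a lower mean there. The clock genes were thus not set apart from other genes by this count.

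The difference between the drug's change with training and without it was then tested for every gene, and limma called 0 (0%; 304 at an unadjusted p under 0.05, smallest adjusted p 1.0). Tsc22d1, a TGF beta-responsive transcription factor gene, had the smallest p: it was at 140, 124, 107 and 115 scaled FPKM with HIIT and 103, 98.0, 114 and 89.6 with the combination, but at 102 ± 14.1 (SD, n = 4) in controls and 160 ± 15.6 with semaglutide, a difference of the log2 changes of -0.91 ± 0.19. Next on that side were Fbh1, a DNA helicase gene (-0.78 ± 0.17), and Adal, an adenosine deaminase-like enzyme gene (-0.67 ± 0.15). On the other side were Niban1 (0.89 ± 0.20) and the BMP antagonist gene Grem1 (1.80 ± 0.46). Grem1 was at 3.50 ± 1.65 in controls and 0.128 ± 0.0950 with semaglutide, beside 1.92 ± 1.80 with HIIT and 1.41 ± 0.506 with the combination. For the genes described above, the difference was 0.23 ± 0.15 for Coq10b and 0.62 ± 0.24 for Cry1, so neither is shown to respond to semaglutide differently in trained and sedentary kidneys.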

How the data were processed

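RNA of the kidney was sequenced as stranded, poly(A)-selected paired-end libraries, per the labels' protocols. The authors deposited a table of FPKM per gene. Per the submitters' processing notes, the build was GRCm39 and the tools included StringTie 2.1.4, featureCounts 2.0.1, STAR 2.7.9a, Trimmomatic 0.36, FastQC and CASAVA, with no role or order given. The table was used as deposited for 16 kidney libraries. Of its 23650 entries, 1853 name no gene (3.13 to 11.5% of summed FPKM) and were left out. A gene was kept if it reached 1 FPKM in 4 or more libraries (11551 genes), libraries were scaled by median ratios, and log2(scaled FPKM + 1) was fitted over all 4 groups with limma 3.58.1 in R 4.3.3 (12 residual degrees of freedom, two-sided, Benjamini-Hochberg over all genes tested, threshold 0.05). Figures were drawn with matplotlib 3.10.9 under Python 3.11.15. Whole reads could not be recovered: in genes with 1 transcript, only 24.3 to 43.3% of low values were whole multiples of the best-fitting step, with a tolerance of 0.05. No 2 libraries held identical values (highest pair correlation 0.9885). The fit was tested on simulated data.

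The members and gene lists were chosen with earlier results of these data known. Genes were named by rule: per direction the 12 with the largest change among those that passed without overlap, filled to 12 by smallest p among genes without overlap; up to 3 of smallest p in each list with at least 5 tested; Glp1r, Lepr, Insr, Slc5a2, Slc9a3, Havcr1 and Lcn2; and 3 of smallest interaction p per direction, leaving out predicted genes, pseudogenes and immunoglobulin genes. The rule yields 175 genes, of which 69 are named, and 18 more were named after their values were seen. Some results are not reported here. Alternatives were no scaling, a pseudocount of 0.1, no filter, only the 2 groups, a replicate block, library weights and leaving out single libraries; leaving out HIIT 1 and 2, a mitochondrial covariate and, for the sedentary comparison, leaving out control 1 were chosen after seeing the data.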

Additional observations from a re-analysis of the deposited data

Results flagged for a closer look

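In 228 groups of 4 libraries, 14 held a library whose gap to its nearest neighbour was large against the group's range by Dixon's criterion at 95%, where chance gives about 1 in 20. Of single genes, in scaled FPKM, Slc22a7 was 14.4 in combined 3 against 3.62 to 4.58 in the rest of its group. Ppm1h was 7.31 in HIIT 2 against 9.98 to 10.1. Usp2 was 5.52 in HIIT 1 against 13.6 to 15.5. Cyp4a14 was 210 in combined 4 against 475 to 509, and Cyp27b1 14.5 in combined 1 against 32.6 to 37.2. HIIT 4 accounted for 5 of the 14. There Trpv5 was 13.8 against 2.88 to 3.08, Slc12a3 106 against 68.3 to 68.6 and C1qa 15.8 against 7.84 to 8.06. In the same library Lcn2 was 42.6 against 0.993 to 2.1 and Pck1 410 against 879 to 1010. Of gene lists, by the median log2 level of their members, fatty acid oxidation and ketogenesis was 6.39 in HIIT 3 against 5.91 to 5.96. The fibroblast, mesangium and smooth muscle markers were 2.32 in HIIT 3 against 2.88 to 2.94. Heat shock chaperones were 5.39 in combined 1 against 4.40 to 4.48, and erythroid genes 5.5 in combined 4 against 7.21 to 7.53.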

How the results depend on the processing

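The count of 2 genes called became 1 on the values as deposited, 1 without the filter (Coq10b), 1 in the fit of only the 2 groups (Aldoc), 25 with library weights (19 higher, 6 lower) and 0 without HIIT libraries 1 and 2. With the replicate number as a block it was 0. Deviations of same-numbered HIIT and combined libraries from their group means had correlations of 0.0655, -0.298, 0.173 and -0.246. With no reference to set them against, these values cannot exclude pairing by number. Leaving out 1 library gave 0 to 7 genes called, with 7 without HIIT 4. Without scaling the median of all genes shifted by 0.16. The difference between trained and sedentary effects, 0 genes, became 1 with library weights (Tsc22d1) and 1 with the mitochondrial covariate. Changes near 0 turned sign. As deposited, Nr1d1 was 0.02, Insr 0.18, Slc5a2 0.06 and Slc9a3 0.19. Without HIIT 1 and 2, Nr1d1 was 0.12, Insr 0.08, Slc5a2 0.20, Slc9a3 0.10, Lcn2 -0.71 and Grem1 0.16; with the mitochondrial covariate Insr, Slc5a2, Slc9a3, Lcn2 and Grem1 were 0.09, 0.06, 0.09, -0.45 and 0.01. Leaving out 1 library gave -0.31 to 0.08 for Nfil3, -0.15 to 0.21 for Insr, -0.44 to 0.03 for Slc5a2, -0.07 to 0.06 for Slc9a3, -0.03 to 1.46 for Lcn2 and -0.34 to 0.24 for Grem1. Among 84 genes under 17 settings, 1380 values kept direction and side of the threshold, 26 reversed, 11 newly passed and 11 no longer passed. The cause was not tested. Depth is unknown, so weakly expressed genes are limited by the spread alone.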
